A study of Homo sapiens with 6 samples.

Results

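The ubiquitin-specific proteases (USPs) are the members of the largest family of human deubiquitinases. Their genes were taken from the rows of the table whose name begins with USP and a digit. Of 45 names of that form, 3 were left out by the naming rule, so that 42 of the 11187 listed protein-coding genes are described here. The rule drops names with a hyphen, names ending in NL and certain USP genes by name, so the family is not covered in full. A mean of at least 1 FPKM (fragments per kilobase of transcript, scaled to the mapped fragments of the library) over the 6 libraries was required for testing, which 40 of the 42 reached.

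Transcripts were measured by RNA sequencing in AGS, an epithelial cell line established from a human gastric adenocarcinoma. One group of 3 libraries came from cells transiently transfected with miR-3648 mimics, synthetic RNAs that act as that microRNA, and the other 3 libraries came from cells transfected with what the labels call NC, against which the mimics are set. Both groups are from the same line, and the labels name no other treatment. Mimics are delivered from outside and the labels give neither dose nor time, so the levels of miR-3648 reached are not known here. Whether each library had a culture of its own is not in the labels, so the spread that the p-values rest on is that of libraries and may be only technical. All 6 epithelial markers checked (EPCAM, KRT8, KRT18, KRT19, CLDN4 and CDH1) were listed, with summed levels of 890 to 904 FPKM in mimic and 771 to 951 FPKM in NC libraries. Single epithelial markers ranged from 0.841 to 326 FPKM. Of 6 fibroblast, 5 leukocyte and 5 endothelial markers, 1 each was listed (COL1A1, CD68 and ESAM), none above 2.96 FPKM in any library.

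USPs cleave the bond between ubiquitin and a protein, or between ubiquitins in a chain, with an active-site cysteine. By removing ubiquitin they can keep a protein from the proteasome, edit signals carried by ubiquitin on histones and receptors, or return ubiquitin to the free pool. Family members differ in where they sit and in the proteins they bind, and several come in close pairs that arose by gene duplication.

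A microRNA pairs with its targets mainly through its seed, bases 2 to 8. The mature miR-3648 of RefSeq, at chr21:8987026-8987046 on the plus strand of GRCh38.p14, is shown with its seed in capitals, because its 7-base match is what was searched for in the USP transcripts. It is 21 bases long with a GC content of 81.0%.
hsa-miR-3648: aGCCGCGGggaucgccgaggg
The matching site in a messenger is CCGCGGC for bases 2 to 8 (7mer-m8), or CGCGGCA for bases 2 to 7 followed by A (7mer-A1).

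No USP transcript held either 7-base site in its 3' untranslated region. The longest 3' untranslated region of each gene in GENCODE v29 was searched, and 41 of the 42 genes had one, USP41 being the exception. The 6-base core CGCGGC was also found in 0 of the 41. Among all tested genes with a 3' untranslated region, 2.12% of 10179 held a 7-base site and 3.93% held the core. In the longest coding sequence a 7-base site was found in 10 of the 42 genes, which were USP7, USP24, USP28, USP30, USP31, USP35, USP42, USP43, USP48 and USP49. Of the 40 tested USP genes 22.5% had such a coding site, against 14.3% of 10213 tested genes. The sites below are those of the members with a coding site whose mimic and NC values did not overlap, USP7 and USP42, and of the 2 most abundant other members with one, USP24 and USP48. Each is given 5' to 3' on the messenger strand with the match to the seed in capitals.
USP7: cccaaattattCCGCGGCAaaatggtgtcc
USP42: ggtcgaggacgCCGCGGCgccgaaagccc
USP24: ggcggcccctcCCGCGGCgggagcaccgg
USP48: atggccCCGCGGCtgcagctggag
The USP7 site begins at base 972 of a coding sequence of 3309 bases and is followed by an A, which makes it an 8-base match. The USP48 site lies at base 7, just after the start codon. The median log2 fold change of mimics over NC was 0.01 in the 9 tested members with a coding site and 0.05 in the other members. In all tested genes these medians were -0.10 and 0.01. The sites consist wholly or almost wholly of G and C, and log2 fold change was lower in genes of higher transcript GC content (Spearman's rho -0.50 over all tested genes). The part of GC content in these medians was not tested. A match is a description of sequence and was not tested as a binding site.

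None of the 40 tested USP genes described here passed the test between mimic and NC libraries. The limma test on log2(FPKM + 1), with Benjamini-Hochberg adjustment over 10286 genes, called 0 of 40 at an adjusted p under 0.05, where it called 0.408% of all tested genes (0.233% higher and 0.175% lower). At an unadjusted p under 0.05 there were 5 USP genes of 40, or 12.5%, against 14.6% of all tested genes. The 3 mimic values lay wholly above the 3 NC values in 2 USP genes and wholly below them in 7. These 9 genes are 22.5% of the 40, and 22.2% of all tested genes had such non-overlapping groups (8.68% higher and 13.5% lower). The median log2 fold change was 0.05 over the 40 genes and -0.0046 over all tested genes. Single USP fold changes ran from -0.31 for USP4 to 0.33 for USP12. The 95% intervals, not adjusted for the number of genes, lay within 0.5 log2 units of 0 for 30 of the 40 and within 1 unit for all 40, from -0.54 to 0.76 at the outermost bounds. In bulk RNA, fewer cells with a transcript and less of it per cell cannot be told apart.

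**Figure D1:**
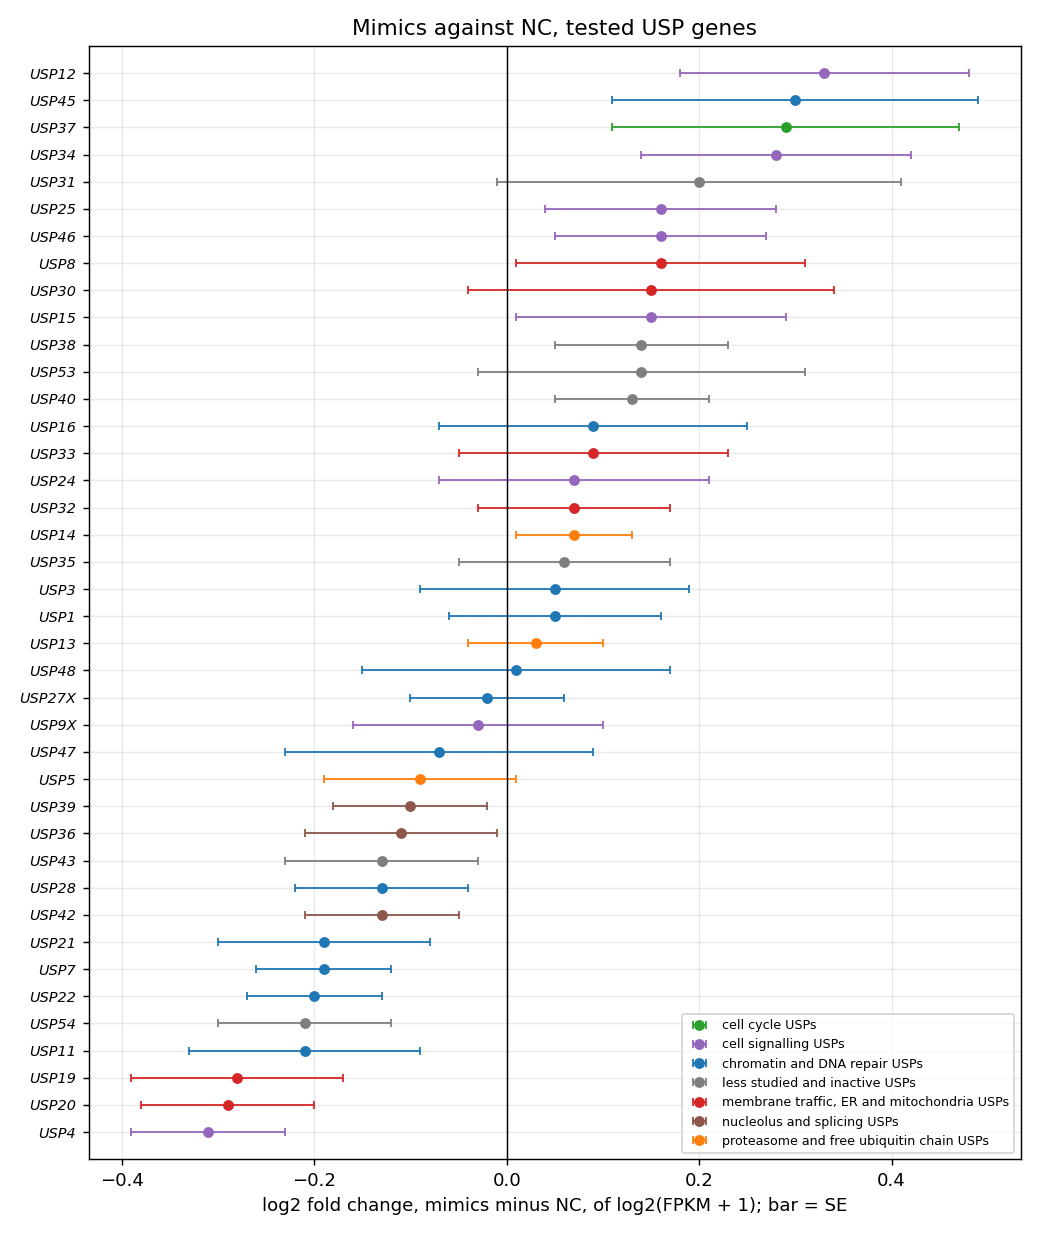
Log2 fold change of mimics minus NC for the 40 tested USP genes, sorted, with bars for the SE (3 libraries a group) and colours for the role group. Values run from -0.31 (USP4) to 0.33 (USP12), and no gene passed the adjusted test.

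By correlation with the other libraries, NC replicate 3 stood apart among the NC libraries. Across all tested genes its log2 values correlated at a mean Pearson's r of 0.967 with NC replicates 1 and 2 and 0.979 with the mimic libraries, while NC replicates 1 and 2 correlated at 0.982 with each other. It was the highest NC library for 20 of the 40 USP genes and the lowest for 14, together 85% of them, against 82.3% of all tested genes. The coefficient of variation was larger in NC than in mimic libraries for 34 of 40 USP genes (85%), against 76.4% of all tested genes. Its median was 5.31% in mimic and 14.6% in NC libraries, against 5.91% and 12.2% over all tested genes. Over NC replicates 1 and 2 alone it was 8.57%, against 7.31% over all tested genes. The median deviation of the tested USP genes from the 6-library gene mean was largest in NC replicate 2, at -0.18 log2 units. It was 0.01 in NC replicate 1 and 0.08 in NC replicate 3. FPKM summed over the listed genes was 212286 to 215510 in mimic and 208274 to 222947 in NC libraries, and read depth is unknown.

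The members spanned a 59.8-fold range of mean level, per length of transcript. USP5 had the highest mean of the 6 libraries, 44.2 FPKM, followed by USP14 at 37.7, USP1 at 30.8, USP22 at 30.0, USP7 at 23.9 and USP12 at 20.6 FPKM. A further 19 genes had means from 5 to under 20 FPKM, 15 from 1 to under 5 FPKM, and 2 lay under 1 FPKM. The median of the 42 means was 5.78 FPKM, against 6.55 FPKM over listed genes. Most steps in this order are smaller than the spread of the libraries. The 6-library ranges of neighbours overlapped in 37 of 41 neighbouring pairs, and the exceptions were USP5 and USP14, USP14 and USP1, USP22 and USP7, and USP38 and USP40. Summed over the 42 genes, the level was 408, 419 and 417 FPKM in mimic libraries and 420, 399 and 445 FPKM in NC replicates 1, 2 and 3. The mimic sums lay inside the NC range.

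**Figure D2:**
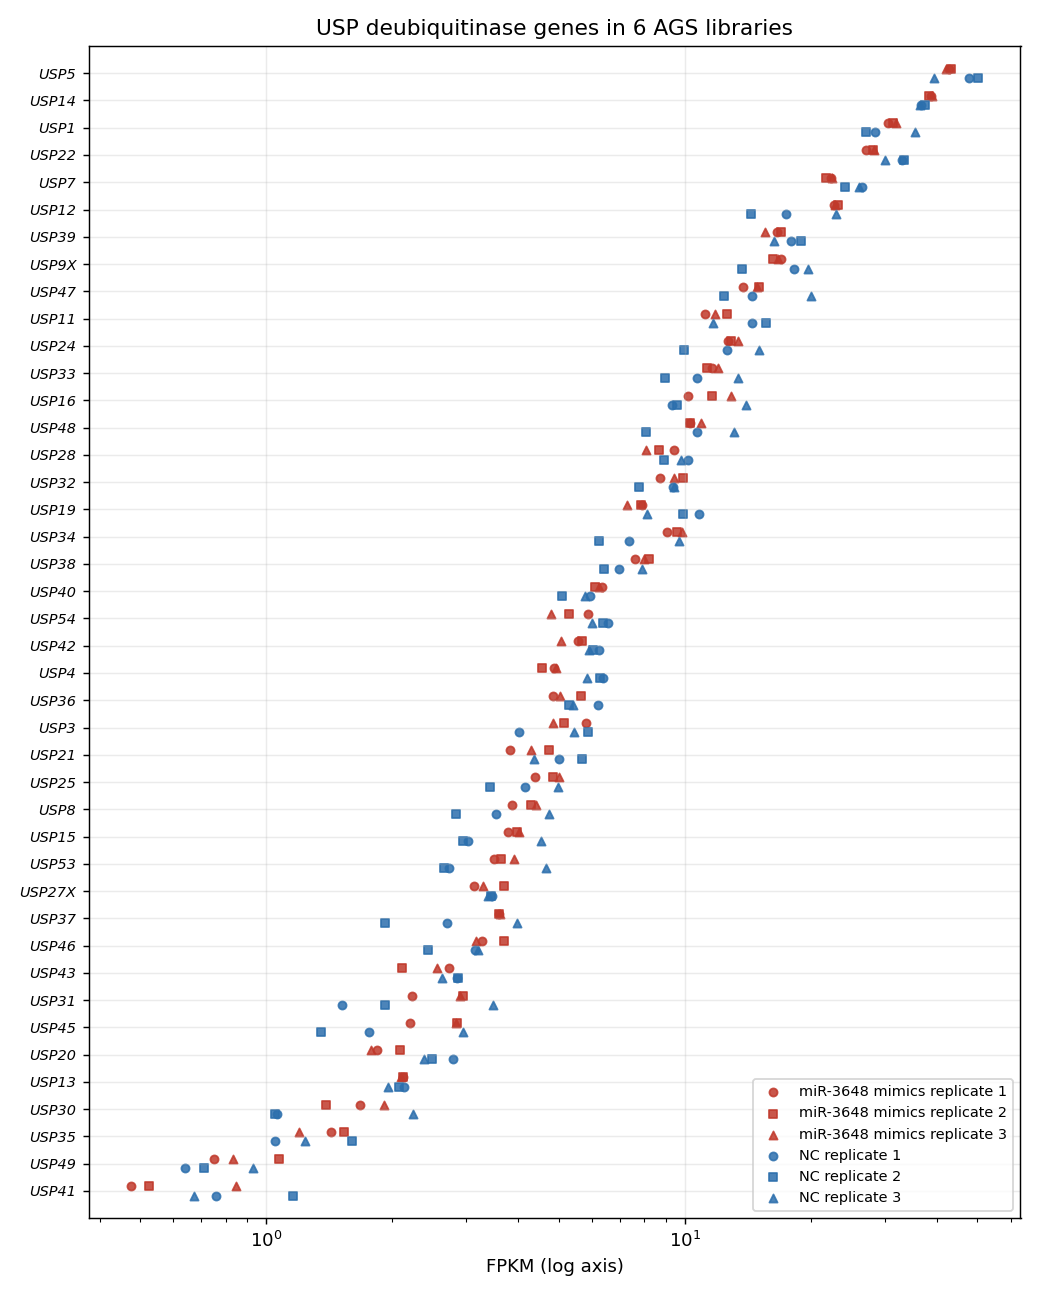
FPKM on a log axis of each of the 42 USP genes, ordered by mean, in 3 mimic libraries (red, upper points of each row) and 3 NC libraries (blue, lower points), with the marker shape for the replicate number. The order runs from USP5, at 44.2 FPKM, to USP41, at 0.739 FPKM, and the blue triangles (NC replicate 3) often sit at one end of the NC points.

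USP5, USP13 and USP14 handle free ubiquitin chains and proteasome substrates, and none of the 3 passed the test. USP5, which takes apart unanchored ubiquitin chains, lay at 42.8, 43.3 and 42.1 FPKM in mimic libraries and 47.7, 50.2 and 39.4 FPKM in NC libraries. The mimic values lay between NC replicate 3 and the other NC libraries (log2 fold change -0.09, SE 0.10, limma adjusted p = 0.67). USP14, which sits on the regulatory particle of the proteasome and trims ubiquitin from its substrates, was at 38.7, 38.3 and 38.9 FPKM in mimic libraries and 36.6, 37.5 and 36.4 FPKM in NC libraries. All mimic values were above all NC values, and the group means differed by 0.07 log2 units (SE 0.06, limma adjusted p = 0.61). USP13, a paralog of USP5 expressed at a far lower level, had 2.12, 2.12 and 2.10 FPKM in mimic libraries and 2.13, 2.08 and 1.95 FPKM in NC libraries. Its log2 fold change was 0.03 (SE 0.07), with a mimic range that the NC range enclosed. The coefficient of variation in mimic libraries was 0.714% for USP14 and 0.53% for USP13. USP14 overlaps THOC1 on the other strand by 110 bases, and no source used here says how strand was handled in quantification.

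Of the USPs of chromatin and DNA repair, 12 of 13 were tested, 0 passed and the median log2 fold change was -0.05. USP22 is the catalytic subunit of the deubiquitinase module of the SAGA coactivator and removes ubiquitin from histone H2B. It measured 27.1, 28.2 and 28.3 FPKM in mimic libraries and 33.1, 33.4 and 30.0 FPKM in NC libraries. The gene lies on the minus strand of chromosome 17 of GRCh37, from 20902906 to 20947073. The groups did not overlap, NC replicate 3 being the NC library nearest the mimics, and the log2 fold change was -0.20 (SE 0.07, limma adjusted p = 0.29). ATXN7L3, which holds USP22 in its active form in that module, averaged 10.5 ± 0.189 FPKM in mimic and 13.6 ± 1.73 FPKM in NC libraries (SD, n = 3 each), again without overlap (log2 fold change -0.34, limma adjusted p = 0.23). The other partners of USP22 looked up, ENY2 and ATXN7, overlapped between groups. ENY2 averaged 3.53 FPKM in mimic and 3.14 FPKM in NC libraries (log2 fold change 0.13). ATXN7 averaged 0.924 FPKM in mimic and 1.05 FPKM in NC libraries and was under the filter. USP27X, a paralog of USP22, had 3.13, 3.70 and 3.29 FPKM in mimic and 3.46, 3.45 and 3.39 FPKM in NC libraries, and its groups overlapped.

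USP7, which acts on MDM2 and p53, lay at 22.3, 21.7 and 22.5 FPKM in mimic libraries and 26.5, 24.1 and 26.1 FPKM in NC libraries. Every mimic value was below every NC value, and NC replicate 3 lay within 0.04 log2 units of the mean of the other NC libraries. The log2 fold change was -0.19 (SE 0.07), with a 95% interval from -0.36 to -0.03, and it did not pass after adjustment (limma adjusted p = 0.29). USP47, the relative of USP7 that acts in base excision repair, stood at 13.8, 15.0 and 14.9 FPKM in mimic libraries and 14.5, 12.4 and 20 FPKM in NC libraries. Its mimic values lay inside an NC range set by replicates 2 and 3.

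USP1, which with WDR48 removes ubiquitin from FANCD2 and PCNA, had 30.6, 31.4 and 31.9 FPKM in mimic libraries and 28.5, 27.1 and 35.4 FPKM in NC libraries. Mimic values were above NC replicates 1 and 2 and below NC replicate 3. The same arrangement held for USP16, which acts on histone H2A, at 10.2, 11.6 and 12.9 FPKM in mimic and 9.31, 9.56 and 14.0 FPKM in NC libraries. USP45, a relative of USP16 that acts in the repair of DNA crosslinks, was at 2.21, 2.85 and 2.84 FPKM in mimic and 1.76, 1.35 and 2.95 FPKM in NC libraries, with a log2 fold change of 0.30 (SE 0.19, limma adjusted p = 0.49) that was 0.14 without NC replicate 2 and 0.51 without NC replicate 3. Its NC values differ among themselves by more than the group means do. USP45 overlaps TSTD3 on the other strand by 1036 bases.

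USP11, which acts on repair proteins, lay the other way round, at 11.2, 12.6 and 11.8 FPKM in mimic libraries and 14.5, 15.6 and 11.7 FPKM in NC libraries. NC replicate 3 sat among the mimic values, and the log2 fold change was -0.21 (SE 0.12, limma adjusted p = 0.43). USP21, a histone H2A deubiquitinase, was at 3.83, 4.73 and 4.28 FPKM in mimic and 5.01, 5.69 and 4.37 FPKM in NC libraries, where again only NC replicate 3 entered the mimic range. USP28, related to USP25 and known for stabilising MYC, had 9.43, 8.68 and 8.09 FPKM in mimic and 10.2, 8.92 and 9.79 FPKM in NC libraries. The remaining tested members, USP3 and USP48, had log2 fold changes of 0.05 and 0.01 with overlapping groups. USP49, a histone H2B deubiquitinase, was under the filter at 0.749, 1.07 and 0.833 FPKM in mimic and 0.639, 0.710 and 0.929 FPKM in NC libraries (exact permutation test, two-sided p = 0.4, where 3 against 3 cannot go below 0.1).

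The 8 cell signalling USPs, with a median transcript GC content of 40.4%, had a median log2 fold change of 0.15, and 0 passed. USP4, which acts on the TGF-beta receptor, had the smallest p of the 40 members. It stood at 4.86, 4.56 and 4.92 FPKM in mimic libraries and 6.38, 6.28 and 5.83 FPKM in NC libraries. The groups did not overlap, and the log2 fold change was -0.31 (SE 0.08), with a 95% interval from -0.49 to -0.12 and a limma adjusted p of 0.20. USP4 lies on the minus strand of chromosome 3 of GRCh37, from 49315264 to 49378145, and shares 79 bases with C3orf62 on the same strand, so reads there could be assigned to either gene. USP15, its paralog, which also acts on that receptor and on SMADs, was at 3.77, 3.98 and 4.02 FPKM in mimic libraries and 3.03, 2.95 and 4.54 FPKM in NC libraries, with a log2 fold change of 0.15 (SE 0.14). The third of these paralogs is USP11, given above at -0.21. Transcript GC content was 49.6% for USP4, 56.7% for USP11 and 36.6% for USP15.

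USP12 and USP46 are close paralogs that both need WDR48 and WDR20 for activity. USP12 had 22.7, 23.2 and 22.8 FPKM in mimic libraries and 17.4, 14.4 and 23.0 FPKM in NC libraries. Its log2 fold change of 0.33 was the highest of the members (SE 0.15, limma adjusted p = 0.37), yet NC replicate 3 lay within the mimic range. Without NC replicate 2, the lowest NC library for USP12, it was 0.18. USP46 was at 3.27, 3.70 and 3.17 FPKM in mimic and 3.16, 2.43 and 3.20 FPKM in NC libraries (log2 fold change 0.16, SE 0.11). WDR48 averaged 7.07 ± 0.546 FPKM in mimic and 6.80 ± 1.03 FPKM in NC libraries, and WDR20 averaged 3.72 ± 0.727 and 2.70 ± 1.39 FPKM in mimic and NC libraries (SD, n = 3 each). Neither partner passed the test. USP12 shares 6.88% of its words of 50 bases with transcripts of other genes, so part of its reads may be shared.

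USP34, a very large USP that acts on the Wnt scaffold axin, measured 9.05, 9.59 and 9.83 FPKM in mimic libraries and 7.35, 6.25 and 9.67 FPKM in NC libraries (log2 fold change 0.28, SE 0.14, limma adjusted p = 0.40). Only NC replicate 3 reached the mimic range, and the log2 fold change was 0.15 without NC replicate 2. USP34 and AHSA2 overlap on opposite strands by 3741 bases. USP25, which acts in immune signalling, was at 4.39, 4.84 and 5.00 FPKM in mimic and 4.14, 3.43 and 4.97 FPKM in NC libraries. USP9X, a deubiquitinase of MCL1, was at 17.0, 16.2 and 16.7 FPKM in mimic and 18.2, 13.7 and 19.7 FPKM in NC libraries, and USP24 at 12.7, 12.9 and 13.4 FPKM in mimic and 12.6, 9.95 and 15.0 FPKM in NC libraries. For both, the mimic values lay inside the NC range. USP37, a cell cycle USP that acts on cyclin A, had mimic values of 3.59, 3.60 and 3.62 FPKM, the smallest SD relative to the mean among the members (0.485%), beside NC values of 2.70, 1.92 and 3.97 FPKM that had an SD of 36.1% of their mean. Its log2 fold change was 0.29 (SE 0.18), and 0.10 without NC replicate 2.

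Among the 6 USPs of membrane traffic, the endoplasmic reticulum and mitochondria, the median log2 fold change was 0.08 and 0 passed. USP20, which acts on the beta2-adrenergic receptor, lay at 1.84, 2.09 and 1.78 FPKM in mimic libraries and 2.80, 2.49 and 2.38 FPKM in NC libraries. No values were shared between the groups, and the log2 fold change was -0.29 (SE 0.09, limma adjusted p = 0.24). USP33, its paralog, was at 11.6, 11.3 and 12 FPKM in mimic libraries and 10.7, 8.95 and 13.4 FPKM in NC libraries, with the mimic values inside the NC range. USP19, which has an isoform anchored in the endoplasmic reticulum, had 7.90, 7.87 and 7.26 FPKM in mimic and 10.8, 9.88 and 8.10 FPKM in NC libraries. Its groups did not overlap although NC replicate 3 came close (log2 fold change -0.28, SE 0.11, limma adjusted p = 0.32). USP19 is close to USP4 on the minus strand of chromosome 3, from 49145479 to 49158371 of GRCh37. USP20, on the plus strand of chromosome 9 from 132596977 to 132644117, overlaps C9orf78 on the other strand by 1166 bases.

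USP30, a mitochondrial outer membrane USP that opposes mitophagy, had the largest within-group spread of the 40 tested members relative to its mean, 47.4% in NC libraries. It was at 1.67, 1.39 and 1.91 FPKM in mimic and 1.06, 1.05 and 2.24 FPKM in NC libraries. USP8, which acts on endosomes and on the EGF receptor, was at 3.86, 4.29 and 4.41 FPKM in mimic and 3.54, 2.84 and 4.73 FPKM in NC libraries. In both genes NC replicate 3 exceeded every mimic value while the other NC values lay below them all. USP32 was at 8.72, 9.89 and 9.42 FPKM in mimic and 9.36, 7.75 and 9.44 FPKM in NC libraries. It has 3 pseudogenes named after it in GENCODE v29, and 28.2% of its words of 50 bases occur in transcripts of other genes.

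The 3 USPs of the nucleolus and splicing were lower on average in mimic libraries, and 0 passed. USP42 was at 5.55, 5.68 and 5.05 FPKM in mimic libraries and 6.23, 6.03 and 5.89 FPKM in NC libraries, without overlap (log2 fold change -0.13, SE 0.08, limma adjusted p = 0.46). USP36, its nucleolar paralog, had 4.83, 5.66 and 5.02 FPKM in mimic and 6.21, 5.30 and 5.41 FPKM in NC libraries. USP39, a spliceosome protein that lacks the catalytic residues, had 16.6, 17.0 and 15.5 FPKM in mimic and 17.9, 18.9 and 16.3 FPKM in NC libraries. Both overlapped between groups, with log2 fold changes of -0.11 and -0.10.

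In the last group of 8 less studied members, 7 were tested and 0 passed. USP40 was at 6.34, 6.09 and 6.24 FPKM in mimic libraries and 5.92, 5.10 and 5.77 FPKM in NC libraries. With USP14 it was one of the genes whose mimic values all lay above the NC values (log2 fold change 0.13, SE 0.08, limma adjusted p = 0.48). USP54 was at 5.86, 5.29 and 4.79 FPKM in mimic and 6.55, 6.38 and 6 FPKM in NC libraries, without overlap (log2 fold change -0.21, SE 0.09, limma adjusted p = 0.35). USP53, the paralog of USP54 and a protein of tight junctions, was at 3.49, 3.64 and 3.91 FPKM in mimic and 2.73, 2.66 and 4.65 FPKM in NC libraries. The pair lay on opposite sides of 0, with USP53 at 0.14 (SE 0.17), and their transcript GC contents were 50% for USP54 and 34.5% for USP53.

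USP31, USP35, USP38 and USP43 had log2 fold changes of 0.20, 0.06, 0.14 and -0.13 with overlapping groups. USP35 had the lowest mean of the tested members, at 1.43, 1.53 and 1.20 FPKM in mimic and 1.05, 1.60 and 1.24 FPKM in NC libraries. USP31 shares 25.5% of its words of 50 bases with one other annotated gene. USP41 was under the filter, at 0.476, 0.525 and 0.846 FPKM in mimic and 0.760, 1.16 and 0.673 FPKM in NC libraries (exact permutation test, two-sided p = 0.3). For USP41 46.5% of such words occur in another USP gene, so its level is uncertain.

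The log2 fold change of the members tended to fall as transcript GC content rose, as it did over all tested genes. Over the 40 members Spearman's rho between log2 fold change and GC content was -0.72 and Pearson's r was -0.71, and over 10213 tested genes they were -0.50 and -0.42. These are descriptions across genes that share the same 6 libraries. Of the 20 members with the lower GC content 17 had a positive log2 fold change (median 0.11), and of the 20 with the higher GC content 14 had a negative one (median -0.12). Over all tested genes split at the same GC content of 44.0%, the medians were 0.12 at or under it and -0.06 above it. All 7 members whose mimic values lay wholly below NC were among the 20 with higher GC content (35% of them). Over all tested genes 18.5% of those above that GC content lay wholly lower, against 2.96% of those at or under it. USP14, at 38.1%, was the one non-overlapping member among the other 20.

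NC replicate 3 followed GC content as well. Its log2 difference from the mean of NC replicates 1 and 2 had a Spearman's rho of -0.80 with GC content over the 40 members and -0.71 over all tested genes. It was the highest NC library for 17 of the 20 members of lower GC content and the lowest for 13 of the 20 of higher GC content. The same counts were not made over all tested genes. The median of its difference was 0.44 in the members of lower and -0.08 in those of higher GC content. Over all tested genes split at the same GC content, these medians were 0.28 and -0.13. For USP53, with the lowest GC content, the mimic mean lay 0.34 log2 units above NC replicates 1 and 2, and NC replicate 3 lay 0.61 above them. For USP12 these differences were 0.50 and 0.51, for USP19 -0.39 and -0.32, for USP4 -0.34 and -0.10, and for USP7 -0.18 and 0.04. The differences in each pair share NC replicates 1 and 2.

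**Figure D3:**
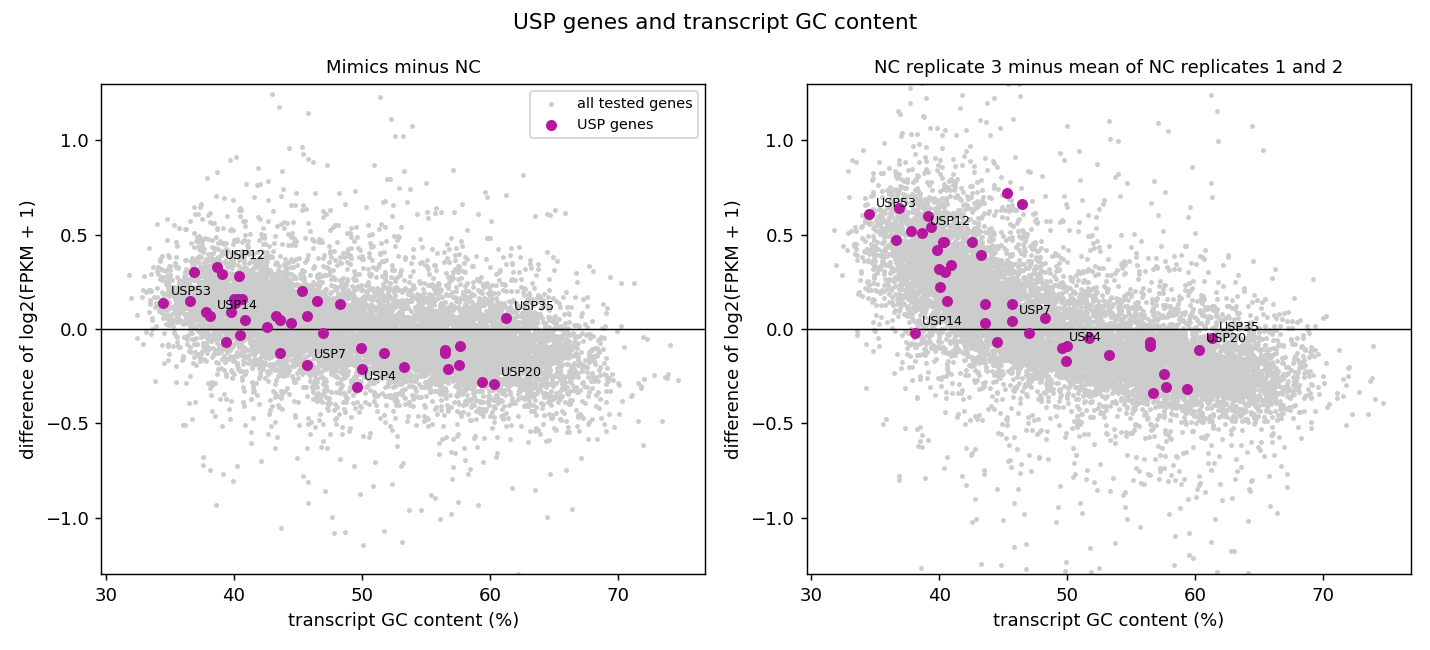
Transcript GC content against the difference of log2(FPKM + 1) for the 40 tested USP genes (purple) over all tested genes (grey), for mimics minus NC on the left and NC replicate 3 minus the mean of NC replicates 1 and 2 on the right. Both panels slope down for USP genes (Spearman's rho -0.72 and -0.80), and 11 and 37 other genes lie beyond the axis limits of 1.3 in the left and right panels.

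**Figure D4:**
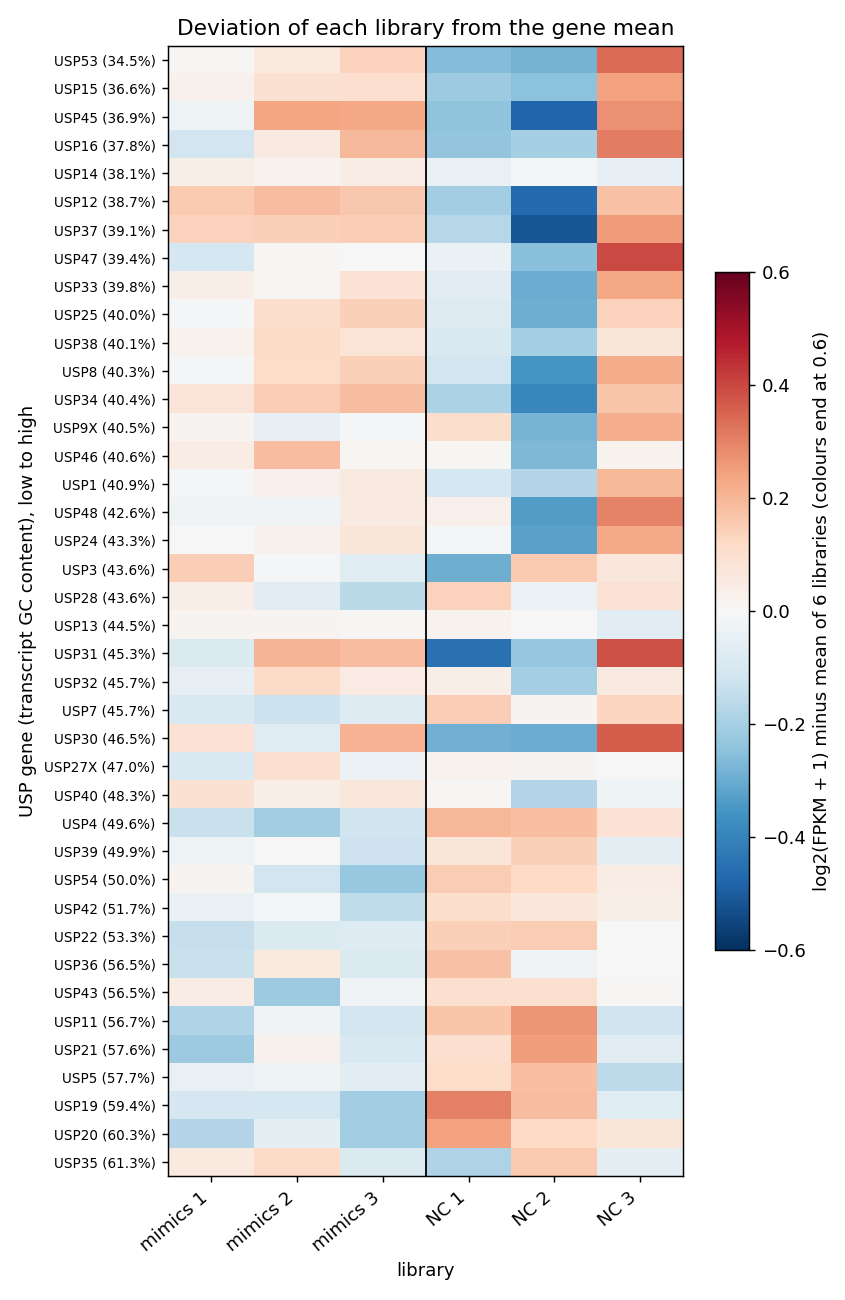
Deviation of log2(FPKM + 1) from the mean of the 6 libraries for each tested USP gene, ordered from low to high transcript GC content, with mimic libraries left of the black line and NC libraries right of it. At low GC content NC replicate 3 is mostly above the gene mean and NC replicate 2 mostly below it, and at high GC content NC replicates 1 and 2 are mostly above it.

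The calls depended on NC replicate 3. Without that library, and with no other change, 9 of 40 USP genes passed (22.5%), where 14.8% of all tested genes did. USP12, USP15, USP34, USP37 and USP53 were higher in mimic libraries, with log2 fold changes of 0.50, 0.30, 0.43, 0.49 and 0.34, and 7.76% of all tested genes were called in that direction. USP4, USP11, USP19 and USP22 were lower, at -0.34, -0.32, -0.39 and -0.25, against 7.09% of all genes. The limma adjusted p values of the 9 lay between 0.028 (USP12) and 0.047 (USP37). At an unadjusted p under 0.05 there were 23 (57.5%, background 37.7%). Groups did not overlap in 30 of the 40 (75%), 18 of them higher and 12 lower, against 55.9% of all tested genes, 26.6% higher and 29.3% lower. With values corrected for transcript GC content as well, 0 of the 40 passed, where 1.19% of all tested genes did (0.695% higher and 0.499% lower), and 12 had an unadjusted p under 0.05 (30%, against 21.8%). Of the 9, the log2 fold change was then -0.29 for USP4 (limma adjusted p = 0.094), -0.15 for USP22, -0.22 for USP19, -0.18 for USP11, 0.25 for USP12, 0.22 for USP34, 0.24 for USP37, 0.01 for USP15 and 0.01 for USP53. Groups did not overlap in 20 (50%), 7 higher and 13 lower, against 41.6% of all tested genes, 20.1% higher and 21.5% lower. With all 6 libraries and the GC correction 0 passed (background 1.05%, with 0.627% higher and 0.421% lower), with 7 under an unadjusted p of 0.05 (17.5% of the 40, background 17.5%). Groups then did not overlap in 10 of the 40 (25%), 3 higher and 7 lower, where 24.7% of all tested genes did not, 11.9% higher and 12.8% lower.

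After GC correction over the 6 libraries the log2 fold change was -0.28 for USP4 (limma adjusted p = 0.082), -0.21 for USP7 (0.11 by the same test), -0.14 for USP22 (0.18), -0.18 for USP19 (0.26) and -0.18 for USP20 (0.30). The groups of USP4, USP7, USP19, USP22 and USP54 still did not overlap, and those of USP1 and USP47 now also lay wholly lower. USP12, USP34 and USP40 lay wholly higher, at 0.20, 0.16 and 0.15. The groups of USP14, USP20 and USP42 overlapped after the correction, and USP14 stood at -0.08. The median log2 fold change of the cell signalling USPs was then 0.02 (0.15 before). For USPs of membrane traffic, the endoplasmic reticulum and mitochondria it was 0.0037 (0.08 before). It was -0.08 for chromatin and DNA repair USPs (-0.05 before) and -0.07 for those of the nucleolus and splicing (-0.11 before). Spearman's rho between the corrected log2 fold change and GC content was -0.28 over the 40 members (-0.72 before). Over all tested genes it was 0.01 (-0.50 before), so the correction left some of the relation among the members. Beyond these values, the part of GC content and of NC replicate 3 in the differences was not tested.

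Members of the other deubiquitinase families and USP relatives with other names were looked up in 6 lists, and 0 of 36 tested genes passed (median log2 fold change 0.03, 8 of 36 with non-overlapping groups, or 22.2%, as in all tested genes). The lists also hold relatives that are not known as deubiquitinases, such as PSMD7, COPS6 and the SUMO protease USPL1. OTUD1, of the OTU family, averaged 3.34 ± 0.141 FPKM in mimic and 4.78 ± 0.342 FPKM in NC libraries (log2 fold change -0.41, limma adjusted p = 0.14). BAP1, the UCH-family deubiquitinase of histone H2A, averaged 6.69 ± 0.292 FPKM in mimic and 8.91 ± 0.418 FPKM in NC libraries (log2 fold change -0.37, limma adjusted p = 0.15, SD and n = 3 each). Both had all mimic values below all NC values. The metalloprotease STAMBPL1, a relative of the endosomal deubiquitinase STAMBP, averaged 6.99 ± 0.483 FPKM in mimic and 5.26 ± 0.894 FPKM in NC libraries (SD, n = 3 each), with all mimic values above all NC values (log2 fold change 0.36, limma adjusted p = 0.27).

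Other genes of the ubiquitin system were counted in the same way. None of 28 tested E2 enzymes, 6 ubiquitin and E1 genes or 9 partner proteins passed, with medians of 0.05, 0.0023 and 0.05. UBA1, the main E1 enzyme, which activates ubiquitin for transfer, averaged 48.7 ± 1.84 FPKM in mimic and 55.6 ± 5.69 FPKM in NC libraries (SD, n = 3 each), and its groups overlapped at NC replicate 3. Of 16 transcripts whose proteins are known to be deubiquitinated by a USP, 1 passed (6.25%, against 0.408% of all tested genes). This list was picked by hand with earlier results of these data known. Its share rests on 1 gene and does not measure how often such transcripts differ. MCL1, an anti-apoptotic protein that USP9X deubiquitinates, fell to 50.7, 50.6 and 51.3 FPKM in mimic libraries, against 72.1, 71.8 and 74.7 FPKM in NC libraries (log2 fold change -0.51, SE 0.06, limma adjusted p = 0.026). The level of a transcript says nothing of the ubiquitin on its protein, which was not measured.

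**Figure D5:**
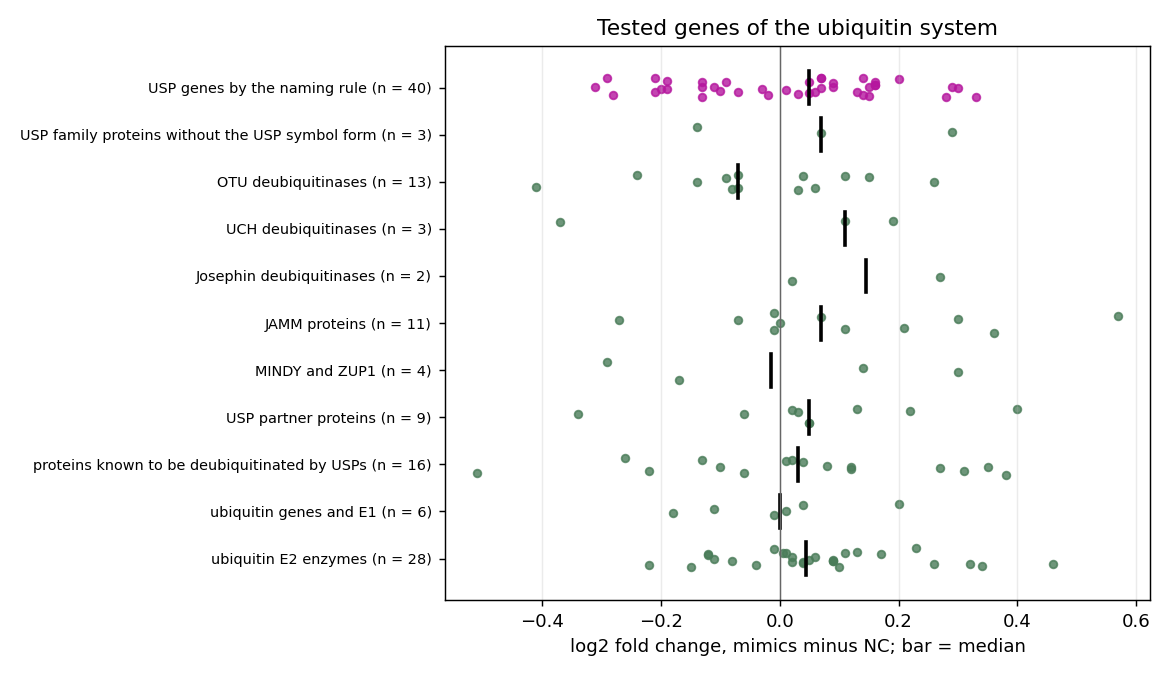
Log2 fold change of mimics minus NC for each tested gene (points, spread vertically at random for legibility) of the USP genes and of 10 other lists of the ubiquitin system, with the median as a black bar and the number of tested genes beside each name. The USP points run from -0.31 to 0.33, and MCL1, at -0.51 among proteins known to be deubiquitinated by USPs, was the one gene to pass the test.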

How the data were processed

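Gene-level FPKM were used as the authors deposited them, in 1 table with 6 library columns, and sample groups and replicate numbers came from the sample titles. Per the submitters' processing notes, cutadapt, StringTie 1.3.3 and GRCh37 were used. The sources used here give no aligner, annotation or strand setting. Values were transformed as log2(FPKM + 1) and tested in R 4.3.3 by limma 3.58.1 (mean-variance trend, two-sided) over all 10286 genes with a mean of at least 1 FPKM, at an adjusted p of 0.05. FPKM with a pseudocount understates the change of low genes. FPKM keeps no depth here, so no counting interval is given.

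GC content came from the transcript with the longest coding sequence in GENCODE v29 (100% of tested members, 99.3% of tested genes). The GC correction subtracted a lowess curve (span 0.3) from each library. Words of 50 bases were matched against all GENCODE v29 transcripts. The miRNA sequence is from RefSeq, and coordinates of the miRNA are on GRCh38.p14.

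Values are given for the 12 members of smallest p, the 6 highest, the 3 lowest, the most variable, and paralogs. Those of USP8, USP24, USP37, USP39, WDR48, ENY2 and ATXN7 were added after their values were seen. The members, lists and rules were chosen with earlier results of these data known.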

Additional observations from a re-analysis of the deposited data

How the results depend on the processing

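The USP median log2 fold change, 0.05 as reported, was 0.10 without NC replicate 3 and -0.02 without NC replicate 2. It was -0.03 with GC correction and -0.03 for means of at least 5 FPKM, so its sign changed. No alternative moved it by more than the SD between libraries (0.094). That SD is larger than the reported median, so this comparison says little about whether the median is stable. Without NC replicate 2, values also fell short of those reported for USP11 (-0.13), USP21 (-0.11), USP25 (0.05), USP8 (0.02), USP15 (0.06), USP46 (0.07), USP31 (0.13) and USP30 (0.04); without NC replicate 1, USP31 was at 0.03, USP30 at 0.04 and USP15 at 0.07. Calls over all genes, 42 as reported, numbered 11 with the replicate block, 107 with GC correction, 12 with both, 122 without NC replicate 3 plus GC correction, and 8 to 1527 with 1 library left out, the highest without NC replicate 3. USP calls were 0 as reported and 0 to 9 with 1 library left out. Non-overlapping USP genes numbered 9 as reported (22.5%, against 22.2% of all tested genes). They numbered 30 without NC replicate 3 (75%, against 55.9%) and 20 with GC correction as well (50%, against 41.6%). With 1 other library left out they numbered 10 to 12, and the share over all tested genes was not computed. With fewer libraries, groups are less likely to overlap in any gene. Same-numbered libraries did not deviate together (Pearson's r 0.039, -0.042 and 0.068 across genes), and not every library correlated best with its own number, so the numbers were not taken as pairs. With the replicate block 0 USP genes passed and 3 had an unadjusted p under 0.05 (7.5% of the 40). The share of all tested genes under that unadjusted p was not computed for this fit, so the 3 cannot be judged as few or many.

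The direction of 23 of the 40 members held in every alternative. With GC correction, with or without the replicate block, it turned for USP14 (-0.08), USP1 (-0.05), USP24 (-0.0009), USP33 (-0.03), USP16 (-0.05), USP48 (-0.07), USP3 (-0.02), USP15 (-0.01), USP53 (-0.04) and USP13 (-0.01). Without NC replicate 3 plus GC correction it turned for USP14 (-0.21), USP1 (-0.03), USP16 (-0.0047), USP38 (-0.003), USP36 (0.01), USP3 (-0.02) and USP13 (-0.07).
With 1 library left out, values ran from -0.09 to 0.14 for USP3, -0.07 to 0.02 for USP27X, -0.16 to 0.16 for USP48, -0.18 to 0.07 for USP9X, -0.0031 to 0.27 for USP16, -0.01 to 0.16 for USP35, -0.02 to 0.17 for USP1, -0.08 to 0.19 for USP24, -0.04 to 0.23 for USP33, -0.01 to 0.12 for USP32 and -0.21 to 0.11 for USP47.
The unknown depth limits the low members most, and overlapping genes can share reads. The cause of these shifts was not tested.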
